A study of Homo sapiens with 24 samples.

Results

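A549 is an established human lung adenocarcinoma cell line, and its response to low oxygen was measured here by RNA-seq. Polyadenylated RNA came from A549 cells grown in F12K medium with 10% fetal bovine serum, either in 21% oxygen (normoxia) or in 0.5% oxygen for 16 h in a hypoxia workstation (hypoxia). The comparison was defined by the sample labels, with earlier results of these data known. It holds 6 of the 24 libraries of the study, 3 in each oxygen state. The other 18 libraries came from HCT116, PC3 and T47D cells in the same oxygen states and were used only for the test between cell lines. All 6 libraries came from 1 cell line. The labels do not say whether replicates were separate cultures, so the p values measure the spread between these libraries, which may be technical.

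Cells sense oxygen through hypoxia-inducible factors (HIFs), which pair an oxygen-labile alpha subunit (HIF1A or EPAS1, also called HIF-2α) with the stable partner ARNT. In oxygen, prolyl hydroxylases of the EGLN family mark the alpha subunits for capture by VHL and destruction. When oxygen falls the alpha subunits persist, bind the hypoxia response element and switch on genes for glucose use, pH control, blood vessel growth and matrix remodelling. Most of this control acts on the HIF proteins, which were not measured here.

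The A549 libraries held between 51650509 and 62850747 counts each. Levels are given as CPM (counts per 1000000 of the library's TMM-normalized total), and 3 counts, taken as the floor of a library, corresponded to between 0.0488 and 0.0565 CPM. Across genes, log2 CPM values correlated with r between 0.984 and 0.990 within an oxygen state and between 0.962 and 0.978 across the states. The libraries of the 2 oxygen states also differed in how counts followed transcript composition. Relative to the mean of the 6 libraries, genes in the highest quintile of transcript GC content stood above those in the lowest quintile by 0.26, 0.30 and 0.07 (log2) in hypoxia replicates 1 to 3, and by -0.28, -0.28 and -0.08 in normoxia replicates 1 to 3. Values that change once GC content and transcript length are modelled (the GC and length correction) are therefore given beside the results they touch. These are bulk libraries, in which fewer cells of a kind and less RNA per cell cannot be told apart.

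The line's identity was checked against marker genes. The keratin genes KRT8, KRT18 and KRT7 had means of 4384, 2654 and 2928 CPM in normoxia. The detoxifying enzymes AKR1B10, AKR1C2 and ALDH1A1, which A549 cells are known to express strongly, had means of 3143, 3313 and 6740 CPM. The defining genes of alveolar type 2 cells were close to 0: SFTPA1, SFTPA2 and SLC34A2 had 0 counts in each of the 6 libraries, and SFTPB, SFTPC, SFTPD and NKX2-1 had at most 8. PTPRC, CD3E, KDR, DCN, KLK3, CDX1 and LGR5, which mark leukocytes, endothelium, fibroblasts, prostate and colon, also had 0 counts in each library. Other members of these marker lists had enough counts to be tested. They were 2 of 6 for leukocytes, 3 of 6 each for fibroblasts, prostate and colon, and 0 of 5 for endothelium. ESR1 and PGR, the hormone receptors of T47D cells, had at most 4 counts, while 4 of 6 markers of T47D cells were tested.

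The promoters of the genes that increased most were examined for the core of the hypoxia response element, the sequence to which HIF is known to bind. The 250 bases before the RefSeq transcription start (GRCh38.p14) are shown 5′ to 3′ on the gene's strand for the 5 genes with the largest increases that had such an entry with a motif. Capitals mark ACGTG or GCGTG on either strand, so they also read CACGT or CACGC where the motif lies on the other strand.
CA9: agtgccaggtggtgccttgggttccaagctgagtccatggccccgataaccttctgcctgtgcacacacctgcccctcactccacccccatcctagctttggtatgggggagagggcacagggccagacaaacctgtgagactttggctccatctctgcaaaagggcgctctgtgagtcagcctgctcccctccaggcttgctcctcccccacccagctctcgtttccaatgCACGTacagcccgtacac
ALDOC: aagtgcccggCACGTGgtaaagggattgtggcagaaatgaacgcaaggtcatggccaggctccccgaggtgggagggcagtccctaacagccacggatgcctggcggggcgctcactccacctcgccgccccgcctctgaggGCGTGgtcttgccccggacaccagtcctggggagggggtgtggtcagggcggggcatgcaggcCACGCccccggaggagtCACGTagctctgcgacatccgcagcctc
LOX: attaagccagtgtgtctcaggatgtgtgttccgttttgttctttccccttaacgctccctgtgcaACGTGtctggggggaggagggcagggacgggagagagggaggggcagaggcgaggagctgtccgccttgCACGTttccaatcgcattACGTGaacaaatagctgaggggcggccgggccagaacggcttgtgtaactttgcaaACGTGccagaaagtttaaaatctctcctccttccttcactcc
HK2: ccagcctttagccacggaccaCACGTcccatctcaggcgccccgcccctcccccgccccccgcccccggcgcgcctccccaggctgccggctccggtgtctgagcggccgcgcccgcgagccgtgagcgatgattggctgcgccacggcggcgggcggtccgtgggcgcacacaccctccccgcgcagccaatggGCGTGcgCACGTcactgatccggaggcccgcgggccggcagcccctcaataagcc
MIR210HG: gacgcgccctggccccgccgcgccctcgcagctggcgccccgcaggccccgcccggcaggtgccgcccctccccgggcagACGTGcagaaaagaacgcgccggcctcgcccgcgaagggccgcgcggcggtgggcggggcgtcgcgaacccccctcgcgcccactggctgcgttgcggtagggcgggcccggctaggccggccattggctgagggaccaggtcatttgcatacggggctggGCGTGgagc

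These windows lie at chr9:35673678-35673927 (CA9, plus strand), chr17:28576896-28577145 (ALDOC, minus strand), chr5:122078260-122078509 (LOX, minus strand), chr2:74833877-74834126 (HK2, plus strand) and chr11:568458-568707 (MIR210HG, minus strand). The CA9 window held 1 motif, ending 14 bases before the start. The ALDOC window held 5, with its CACGTG counted on each strand, and the LOX window 4. EGLN3 and UPK1A, also among the 12 largest increases, had neither motif in their windows. The motif is common: of the 15727 windows matched to genes tested, 54.6% held ACGTG or GCGTG and 22.1% held ACGTG. Windows were matched for 10742 of 13897 genes (77.3%), which is too few to compare classes of genes, so the shares among changed genes are not read here. A match says only that these letters are present.

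Hypoxia changed the expression of a large part of the A549 transcriptome. Of 13897 genes tested, 2452 (17.6%) rose and 2476 (17.8%) fell by the quasi-likelihood test of edgeR, where a call needed a fold above 1.2 beside an adjusted p below 0.05. In either direction the calls covered 4928 genes (35.5%). The shares of 17.6% and 17.8% are the background for the counts of every gene list below. The increases reached further than the decreases. More than 2-fold increases were called for 558 genes (4.02%) and more than 2-fold decreases for 297 (2.14%). The median change was 0.65 (log2) among upregulated genes and -0.56 among downregulated genes. The 3 hypoxic libraries did not overlap the 3 normoxic ones for 6686 genes (48.1%), among them 2327 of the upregulated and 2401 of the downregulated genes. The balance of the calls depended on the scaling. Scaling to library totals moved the median of all genes from -0.01 to -0.13 and gave 1778 upregulated and 3461 downregulated genes, so that 33.9% of calls were increases, against 49.8% with TMM. The share of counts in the top 10 genes was 6.17% to 6.30% in normoxia and 6.96% to 7.88% in hypoxia. Downregulated genes numbered 1533 without hypoxia replicate 2 and 1467 without normoxia replicate 2.

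**Figure D1:**
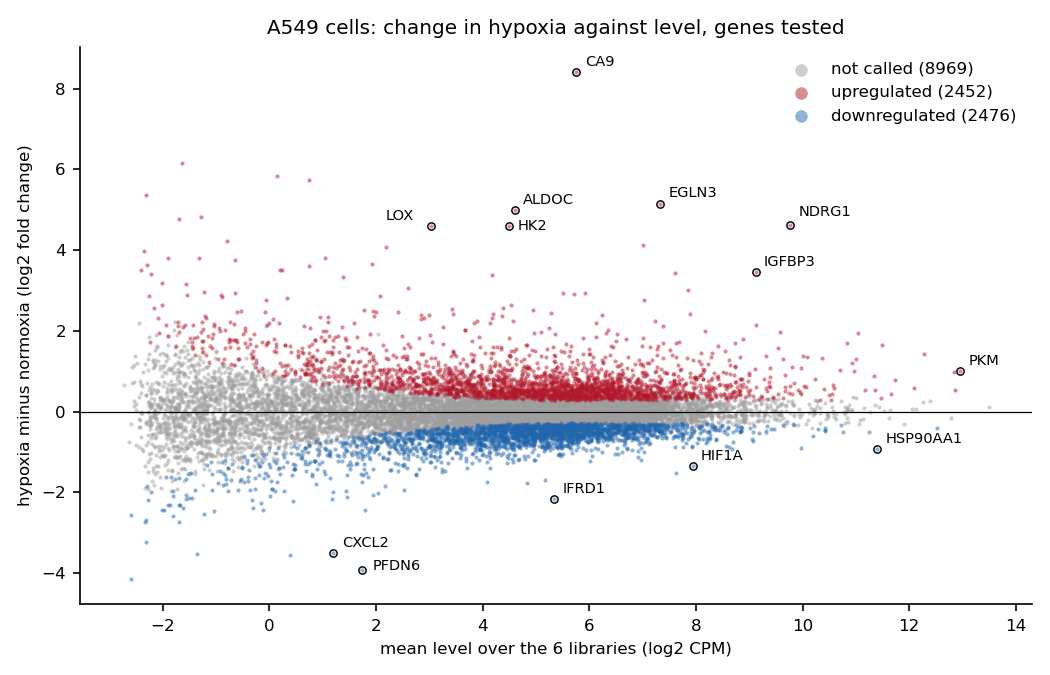
Log2 fold change in hypoxia (vertical axis) against the mean level over the 6 A549 libraries in log2 CPM (horizontal axis) for the 13897 genes tested, coloured by call. CA9 stands highest at 8.40, and the more than 2-fold changes are more often increases (558) than decreases (297).

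Calls also followed transcript composition. In the quintile of genes with the lowest GC content (median, 38.2%), 34.1% of genes were downregulated and 7.70% upregulated. In the quintile with the highest GC content (median, 61.7%), 6.43% were downregulated and 27.8% upregulated. Transcript length showed a smaller trend in the same sense, with 22.95% downregulated among the shortest quintile and 12.3% among the longest. With a correction for both, 2072 of 13443 genes tested were upregulated and 2243 downregulated. Of these, 1686 and 1635 were also among the 2452 upregulated and 2476 downregulated genes of the fit without it. The part of this trend in the single results was not tested beyond that correction.

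**Figure D2:**
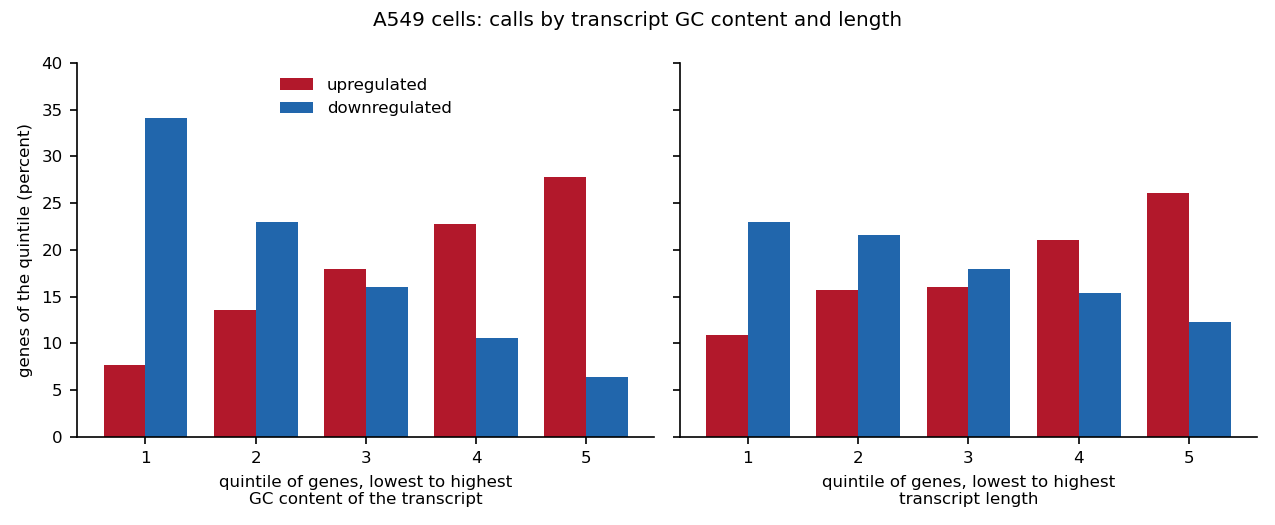
Share of genes upregulated and downregulated in hypoxia (vertical axis, percent) in quintiles of the genes tested, ordered by transcript GC content (left) and by transcript length (right). Downregulated genes drop from 34.1% to 6.43% across the GC quintiles while upregulated genes rise from 7.70% to 27.8%.

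CA9, which encodes a membrane carbonic anhydrase that helps cells export acid, showed the largest increase of all genes tested. The 12 largest changes each way are described for called genes with a mean above 1 on the log2 CPM scale whose states did not overlap. The lack of overlap in these genes is therefore part of their choice, not a result. CA9 lies at 35673925-35681156 on the plus strand of chromosome 9 (GRCh37). CA9 had 0.520, 0.102 and 0.341 CPM in the normoxic libraries and 123, 101 and 99.3 CPM in the hypoxic ones. Normoxic CA9 rested on 28, 6 and 20 counts, and the fold change was 339 (log2 fold change, 8.40 ± 0.29 SE; adjusted p = 6.8e-09). EGLN3, the HIF prolyl hydroxylase known as PHD3, had 10.5, 7.68 and 8.33 CPM in normoxia and 337, 287 and 316 CPM in hypoxia. For EGLN3 the log2 fold change was 5.15 ± 0.15 (SE). NDRG1, a stress-responsive gene tied to differentiation, had 60.8, 60.0 and 82.1 CPM in normoxia and 1735, 1502 and 1794 CPM in hypoxia, a log2 fold change of 4.63 ± 0.16 (SE). In each of these genes the hypoxic libraries lay far above the normoxic ones.

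Metabolic genes formed a second part of the largest increases. ALDOC, an aldolase of glycolysis, had 1.89, 1.49 and 1.06 CPM in normoxia and 60.7, 38.1 and 41.8 CPM in hypoxia (log2 fold change, 4.99). HK2, the hexokinase that traps glucose in the cell, had 1.21, 1.63 and 2.52 CPM against 49.8, 41.5 and 38.8 CPM (log2 fold change, 4.60). The neuronal-type glucose transporter SLC2A3 had 21.4, 8.49 and 12.3 CPM against 322, 199.7 and 209.5 CPM (log2 fold change, 4.12). In all 3 genes the lowest hypoxic library lay far above the highest normoxic one.

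LOX, IGFBP3 and ANGPTL4 encode secreted proteins. LOX, a lysyl oxidase that cross-links collagen and elastin, had 0.780, 0.576 and 0.579 CPM in normoxia and 16.8, 12.5 and 17.6 CPM in hypoxia (log2 fold change, 4.60). IGFBP3, a binding protein of insulin-like growth factors, had 110.0, 82.9 and 85.8 CPM against 1126, 976 and 953 CPM (log2 fold change, 3.45). ANGPTL4, a secreted inhibitor of lipoprotein lipase, had 27.5, 41.3 and 31.1 CPM against 357, 367 and 352 CPM (log2 fold change, 3.43). In all 3 the hypoxic libraries lay close together, and above every normoxic library as the choice of genes required. The remaining genes, MIR210HG, UPK1A and FGF11, stayed under 10 CPM in hypoxia and increased by 4.09, 3.80 and 3.65 (log2). Each of the 12 calls held in every fit that left out a library.

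**Figure D3:**
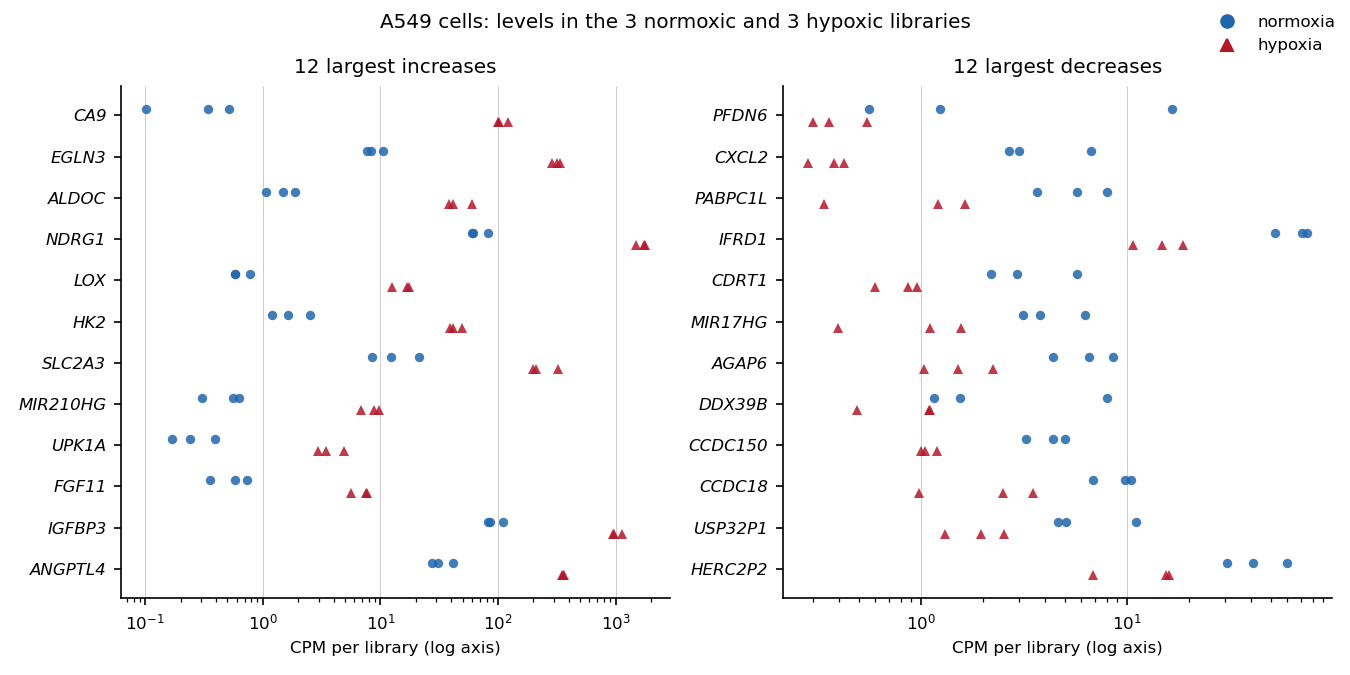
CPM in each of the 6 A549 libraries (horizontal log axis) for the 12 largest increases (left) and the 12 largest decreases (right) among genes above that level, with circles for normoxia and triangles for hypoxia. CA9 goes from at most 0.520 CPM to at least 99.3 CPM, whereas PFDN6 and DDX39B each have 1 normoxic library (replicate 3) far above the other 5 libraries.

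The largest decreases were smaller and mostly concerned genes with few counts. CXCL2, a neutrophil-attracting chemokine, had 2.69, 6.71 and 2.999 CPM in normoxia and 0.423, 0.377 and 0.282 CPM in hypoxia. The log2 fold change of CXCL2 was -3.51 ± 0.40 (SE; adjusted p = 9.6e-05, edgeR). IFRD1, a transcriptional co-regulator, had 71.2, 75.0 and 52.4 CPM in normoxia and 18.8, 14.8 and 10.7 CPM in hypoxia. Its log2 fold change was -2.16 ± 0.20 (SE). PABPC1L, CDRT1, CCDC150 and CCDC18 decreased, with log2 fold changes between -2.44 and -1.95, and each of these calls held in every fit that left out a library.

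The remaining large decreases carry limits. PFDN6 had 0.557, 1.24 and 16.6 CPM in normoxia and 0.358, 0.547 and 0.301 CPM in hypoxia. Its fitted change of -3.93 (log2) rested on normoxia replicate 3, without which it was -1.16 with an adjusted p of 0.0979 (edgeR). DDX39B had 1.54, 1.15 and 7.99 CPM in normoxia and 1.09, 0.490 and 1.11 CPM in hypoxia. Without normoxia replicate 3 its change went from -1.99 to -0.58 (adjusted p = 0.307, edgeR), and its call was also lost without hypoxia replicate 2 (adjusted p = 0.0783) and with DESeq2 (adjusted p = 0.0758). AGAP6, USP32P1 and HERC2P2 decreased, with log2 fold changes of -2.02, -1.84 and -1.78, but they belong to families with near-identical copies, and fragments without a unique position were excluded before counting. Their levels are therefore uncertain.

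The transcripts that host microRNAs stood at both ends of the response. MIR210HG, which hosts miR-210, had 0.631, 0.559 and 0.307 CPM in normoxia and 8.89, 9.82 and 6.79 CPM in hypoxia (log2 fold change, 4.09 ± 0.28 SE). MIR17HG, the precursor of the miR-17-92 cluster, had 3.77, 6.29 and 3.12 CPM in normoxia and 1.11, 1.56 and 0.395 CPM in hypoxia (log2 fold change, -2.10 ± 0.41 SE; adjusted p = 0.0027). For neither gene did the states overlap, which the choice of these genes required. The mature miRNAs that RefSeq places in these transcripts are shown 5′ to 3′ with the seed, bases 2 to 8, in capitals.
hsa-miR-210-3p: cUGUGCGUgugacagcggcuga
hsa-miR-17-5p: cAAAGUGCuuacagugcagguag
hsa-miR-18a-5p: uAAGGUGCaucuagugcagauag
hsa-miR-19a-3p: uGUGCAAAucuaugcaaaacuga
hsa-miR-20a-5p: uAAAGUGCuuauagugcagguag
hsa-miR-19b-3p: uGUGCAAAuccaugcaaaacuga
hsa-miR-92a-3p: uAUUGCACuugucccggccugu

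miR-17-5p and miR-20a-5p share the seed AAAGUGC, and miR-19a-3p and miR-19b-3p share GUGCAAA. The mature miRNAs were not measured by these libraries. Of 13 noncoding RNAs tested in a list of named transcripts, 2 were upregulated and 7 downregulated. NEAT1, the scaffold of nuclear paraspeckles, had 269, 401 and 209 CPM in normoxia and 153, 106 and 50.1 CPM in hypoxia (log2 fold change, -1.51). The host transcripts SNHG1, MIR31HG and MIR22HG decreased, with log2 fold changes of -1.19, -0.86 and -0.99. H19, named after its value was seen, was the other upregulated member at 1.51 (log2), with overlapping states, and 1 member was upregulated without hypoxia replicate 1, normoxia replicate 2 or normoxia replicate 3.

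Within the oxygen-sensing pathway itself, HIF1A mRNA decreased while EPAS1 mRNA increased. HIF1A had 351, 317 and 388 CPM in normoxia and 136, 129 and 148 CPM in hypoxia, a log2 fold change of -1.36 ± 0.12 (SE; adjusted p = 9.7e-06). EPAS1 had 252, 212 and 303 CPM in normoxia and 389, 361 and 366 CPM in hypoxia, a log2 fold change of 0.54 ± 0.13 (SE; adjusted p = 0.0076). The groups did not overlap for either gene, as for most called genes. In the fit of all 24 libraries the call was lost for EPAS1 (adjusted p = 0.128, edgeR) and in all for 47 of the 231 named genes that were called, ENO1, ACTG1, HSPA8, TFRC, NDUFAB1, HLA-C and JAG1 among them. The stable partner ARNT had a log2 fold change of 0.23 (adjusted p = 0.097) and was not called, whereas its relative ARNT2 increased by 0.62.

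The negative regulators of HIF included the largest increases of the pathway. Beside EGLN3, CITED2, which competes with HIF for the coactivators EP300 and CREBBP, had 10.8, 10.4 and 15.4 CPM in normoxia and 72.6, 56.5 and 68.3 CPM in hypoxia (log2 fold change, 2.43 ± 0.16 SE). EGLN1, the main HIF prolyl hydroxylase, had 157, 139.8 and 169.5 CPM against 284, 258 and 276 CPM (log2 fold change, 0.81 ± 0.11 SE). EGLN2, the third hydroxylase, had a log2 fold change of -0.11 (adjusted p = 0.42) and was called with the GC and length correction (-0.28, adjusted p = 0.0447, edgeR). HIF1AN, the asparaginyl hydroxylase known as FIH, increased by 0.36, a call that was lost without hypoxia replicate 2, normoxia replicate 1 or normoxia replicate 2 (highest adjusted p = 0.132, edgeR) and with the GC and length correction (0.03).

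VHL had 59.9, 57.7 and 42.9 CPM in normoxia and 46.4, 36.96 and 16.9 CPM in hypoxia. The states overlapped and the log2 fold change of -0.68 ± 0.27 (SE) was not called (adjusted p = 0.071). It was called with no filter on low counts (adjusted p = 0.0274), in the fit of all 24 libraries (adjusted p = 0.0418) and without hypoxia replicate 1 (-0.98, adjusted p = 0.016, edgeR). The ubiquitin ligase gene SIAH2 increased by 0.46 and lost its call without normoxia replicate 2 (adjusted p = 0.0787, edgeR), while OS9, SIAH1 and CITED4 had changes of 0.22, 0.05 and 0.05 and were not called. SIAH1 was called with the GC and length correction (0.36, adjusted p = 0.0456, edgeR). EP300 and CREBBP increased by 0.70 and 0.59, with overlapping states in both. EP300 lost its call without normoxia replicate 1 or 2 (highest adjusted p = 0.0593), and CREBBP without any of hypoxia replicates 1 and 2 and normoxia replicates 1 and 2 (highest adjusted p = 0.132) and with the GC and length correction (0.12). Of 16 members tested, 9 were upregulated and 1 was downregulated, with a median of 0.41, beside 17.6% and 17.8% of all genes and a median of -0.01. Without normoxia replicate 2, 5 members were upregulated.

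**Figure D4:**
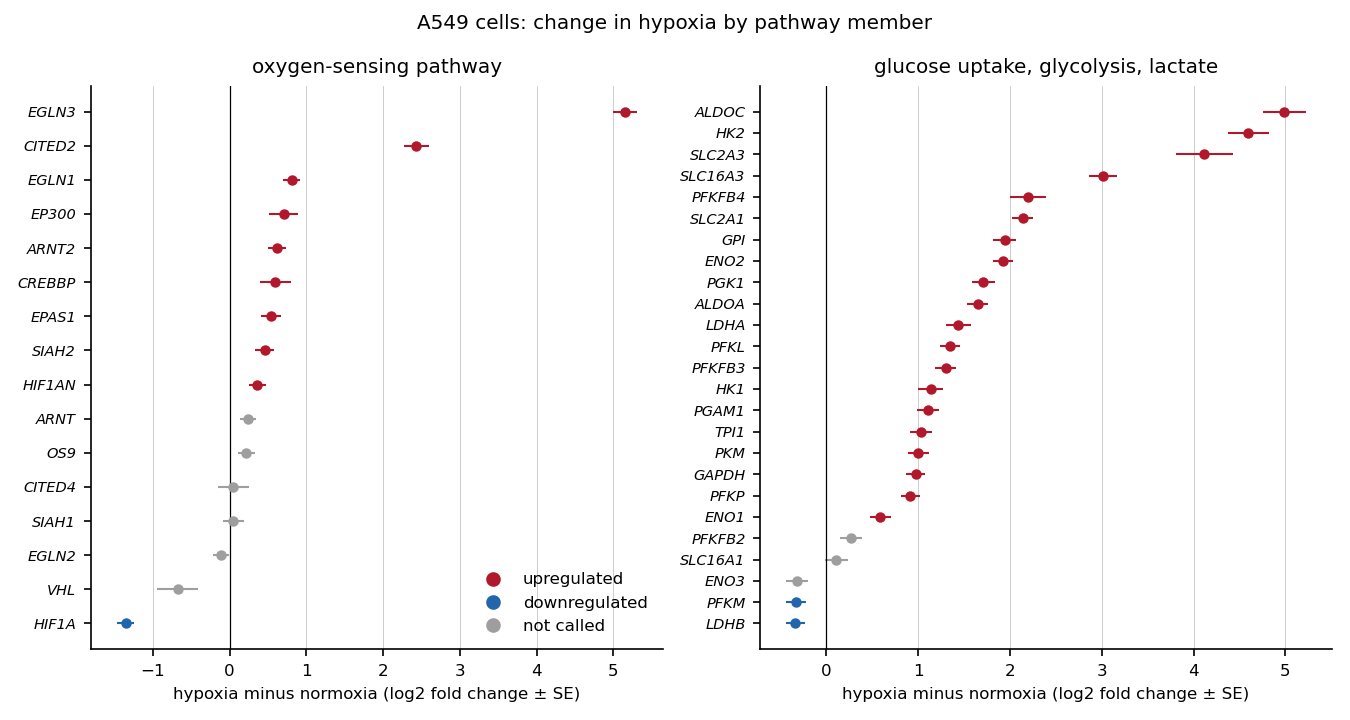
Log2 fold change in hypoxia with its SE (horizontal axis) for the 16 oxygen-sensing genes tested (left) and the 25 genes of glucose uptake, glycolysis and lactate handling tested (right), coloured by call. EGLN3 (5.15) and HIF1A (-1.36) are the extremes on the left, and 20 of the 25 genes on the right are upregulated.

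The glycolytic pathway increased from glucose entry to lactate export. Of 25 members tested, 20 were upregulated and 2 downregulated, with a median change of 1.30. The count of increases was 20 or 21 in the fits that left out a library, whereas the count of decreases was 1 without hypoxia replicate 1 or 3, and 0 without hypoxia replicate 2, normoxia replicate 1 or normoxia replicate 2. The glucose transporter SLC2A1 (GLUT1) had 213, 192 and 216 CPM in normoxia and 833, 899.7 and 998 CPM in hypoxia (log2 fold change, 2.14). GPI, which converts glucose-6-phosphate to fructose-6-phosphate, had 856, 765 and 978 CPM against 3547, 3369 and 3056 CPM (log2 fold change, 1.94). ENO2 increased by 1.92. The lactate exporter SLC16A3 (MCT4) had 50.02, 40.4 and 61.6 CPM in normoxia and 381, 419 and 424 CPM in hypoxia (log2 fold change, 3.01). In none of these genes did the states overlap, as for 2327 of the 2452 upregulated genes.

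Isoforms of the same step changed unequally. LDHA, the lactate dehydrogenase subunit that favours lactate formation, had 2683, 2508 and 2856 CPM in normoxia and 6354, 6780.4 and 8669.6 CPM in hypoxia (log2 fold change, 1.44 ± 0.13 SE). LDHB, the other main subunit, had 1927, 1942 and 1809 CPM in normoxia and 1438, 1482 and 1572 CPM in hypoxia (log2 fold change, -0.34 ± 0.10 SE; adjusted p = 0.023). The decrease of LDHB was lost without hypoxia replicate 1 or 2 or normoxia replicate 1 or 2 (highest adjusted p = 0.12, edgeR) and with the GC and length correction (-0.15, adjusted p = 0.211). Among the remaining members, named after their values were seen, the muscle-type phosphofructokinase PFKM had a log2 fold change of -0.33 and PFKL of 1.35, both called, and the lactate carrier SLC16A1 had a change of 0.11 (adjusted p = 0.52).

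The most counted genes moved with this pathway. Of the 6 upregulated genes with the highest mean CPM, 4 were glycolytic. PKM had 5223, 4919 and 5737 CPM in normoxia and 9668, 10346 and 11794 CPM in hypoxia, a log2 fold change of 1.002. GAPDH, often used as a reference gene, had 5076, 4643 and 5120.4 CPM against 9758, 9712 and 9639 CPM, a log2 fold change of 0.97 ± 0.10 (SE). ENO1 increased by 0.59, the amino acid transporter SLC7A5 by 0.79, and the cytoplasmic actin ACTG1 by 0.54. Each hypoxic library lay above each normoxic one for all 6 genes, as for 2327 of the 2452 upregulated genes.

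Of 12 glycogen genes tested, 6 were upregulated, 5 were not called and 1 was downregulated, and the 1 was lost without hypoxia replicate 2, normoxia replicate 1 or normoxia replicate 2. GYS1, the glycogen synthase, had 29.4, 32.6 and 42.4 CPM in normoxia and 99.6, 97.6 and 81.8 CPM in hypoxia (log2 fold change, 1.42). The branching enzyme GBE1 increased by 1.29, and the phosphatase targeting subunits PPP1R3B and PPP1R3C, which activate glycogen synthase, increased by 1.94 and 1.62. PGM1 and the phosphorylase PYGL increased by 0.91 and 0.80.

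The pyruvate and TCA cycle list gave counts near those of all genes. Of 30 members tested, 6 were upregulated and 7 downregulated, beside 17.6% and 17.8% of all genes, with a median of 0.02 that became -0.10 with scaling to library totals. PDK1, a kinase that shuts off pyruvate dehydrogenase, had 5.14, 7.92 and 6.22 CPM in normoxia and 38.3, 41.3 and 40.4 CPM in hypoxia (log2 fold change, 2.64 ± 0.15 SE), and PDK3 increased by 1.52. IDH2, the mitochondrial NADP-dependent isocitrate dehydrogenase, had 27.1, 21.8 and 25.9 CPM against 114, 113 and 114 CPM (log2 fold change, 2.19), and pyruvate carboxylase (PC) increased by 1.14. SUCLA2 and SDHB, a succinyl-CoA synthetase subunit and a succinate dehydrogenase subunit, decreased, with log2 fold changes of -0.54 and -0.53, and the call of SDHB was lost with the GC and length correction (adjusted p = 0.0601, edgeR). With that correction 3 members were downregulated, and 4 were without hypoxia replicate 2 or normoxia replicate 2.

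Subunits of the respiratory chain shifted slightly downward. Of 59 nuclear-encoded subunits tested, 0 were upregulated and 17 (28.8%) were downregulated, beside 17.6% and 17.8% of all genes. The median was -0.23 and 51 values were below 0. NDUFAB1, NDUFA5, NDUFB3 and NDUFB6 of complex I decreased, with log2 fold changes of -0.60, -0.53, -0.69 and -0.56, UQCR10 of complex III of -0.47 and COX6C of complex IV of -0.54. The count was not steady: it was 33 with library totals, 11 with the GC and length correction, 8 without hypoxia replicate 2, 9 without normoxia replicate 1, 10 without hypoxia replicate 1 or normoxia replicate 2, and 27 without normoxia replicate 3. With the GC and length correction the median was -0.10, and the calls of NDUFB3, NDUFB6, COX6C and UQCR10 were lost. Over all genes, 2243 of 13443 were downregulated with that correction and 1533 of 14121 without hypoxia replicate 2. The counts of 11 and 8 subunits in these fits lay near those shares.

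Large ribosomal subunit genes of the mitochondrion moved in the same direction. Of 48 tested, 39 (81.3%) were downregulated and 0 upregulated, with a median of -0.47. MRPL46 had 44.8, 53.3 and 43.6 CPM in normoxia and 21.0, 27.2 and 27.9 CPM in hypoxia (log2 fold change, -0.90 ± 0.13 SE). MRPL42, MRPL1, MRPL3, MRPL18 and MRPL32 decreased, with log2 fold changes between -0.79 and -0.65. These transcripts are short (median length of the list, 1654 bases, against 3856 for all genes), and with the GC and length correction 27 remained downregulated, the median was -0.35 and the call of MRPL1 was lost (adjusted p = 0.0919, edgeR). Without hypoxia replicate 1 or 2 the count was 24, and without normoxia replicate 2 it was 25.

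Mitophagy genes increased. BNIP3L, a mitophagy receptor of the outer mitochondrial membrane, had 78.5, 71.9 and 73.6 CPM in normoxia and 418, 358 and 421 CPM in hypoxia (log2 fold change, 2.42 ± 0.11 SE). Its relative BNIP3 had 77.6, 80.6 and 72.9 CPM against 245, 225 and 239 CPM (log2 fold change, 1.62 ± 0.10 SE). Of 19 mitophagy and autophagy genes tested, 11 were upregulated, among them GABARAPL1 (0.90), ATG9A (0.83), ULK1 (0.76) and PINK1 (0.82). The count was 11 in every fit that left out a library. Downregulated members numbered 2, which became 1 without hypoxia replicate 1, normoxia replicate 1 or normoxia replicate 2, and 4 without hypoxia replicate 3.

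**Figure D5:**
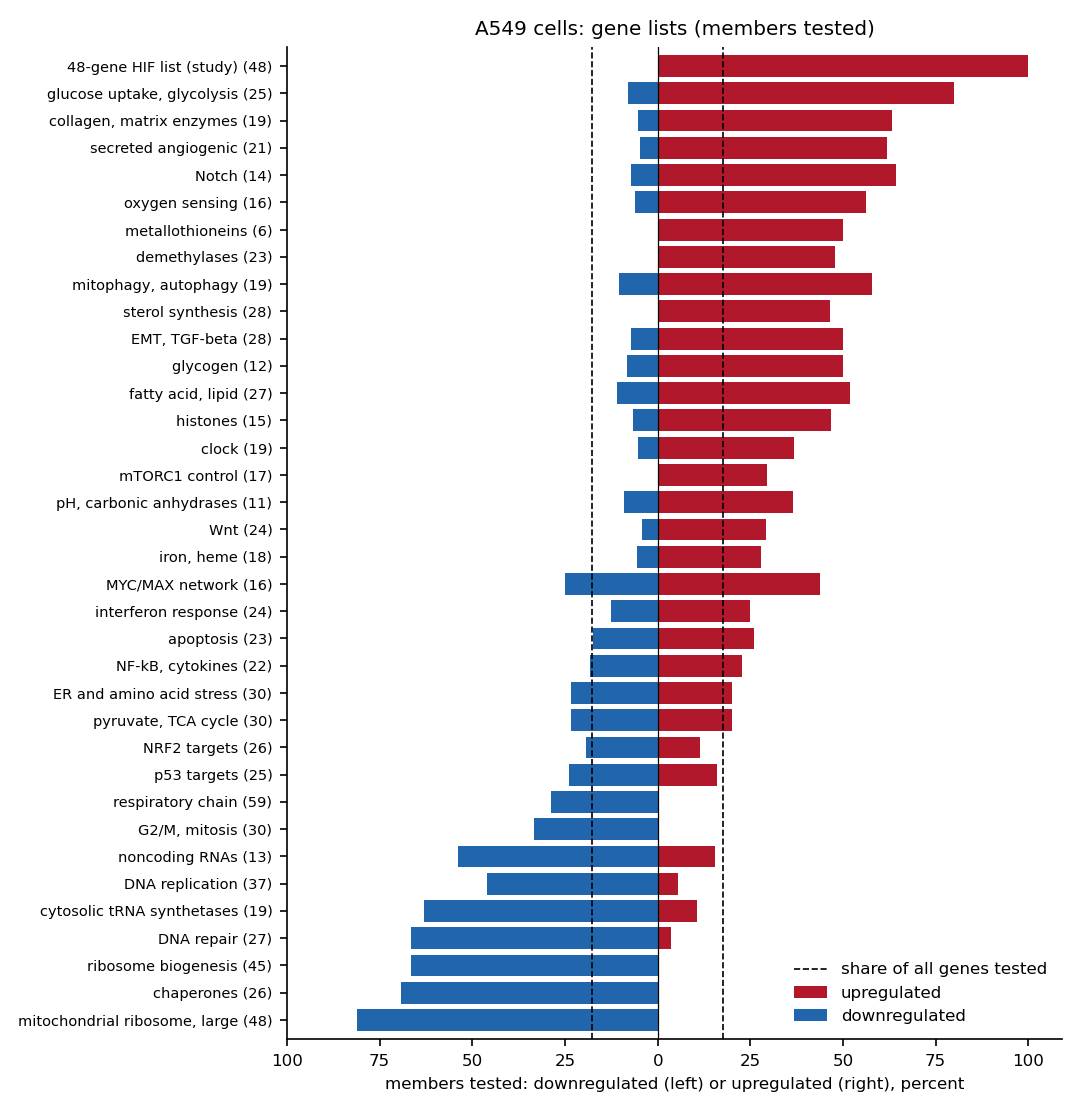
Share of the tested members of each gene list that were upregulated (right) or downregulated (left) in hypoxia, in percent, with the number tested in parentheses and dashed lines at the shares of all genes tested (17.6% and 17.8%). The study's 48-gene list and the glycolysis list reach furthest to the right, and the mitochondrial ribosome list (39 of 48) and the chaperone list (18 of 26) furthest to the left.

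The study's 48-gene list of HIF targets was upregulated throughout. All 48 members tested were upregulated in A549 cells, with a median of 1.55. The study chose this list on these libraries among others, so the count is not independent evidence of its direction. The members with the smallest p values were NDRG1, ANGPTL4, AK4, BNIP3L, HK2 and SLC16A3. AK4, a mitochondrial adenylate kinase, had 23.1, 25.3 and 23.5 CPM in normoxia and 118, 128 and 134 CPM in hypoxia (log2 fold change, 2.40 ± 0.11 SE).

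Control of pH rested on few genes. Of 11 carbonic anhydrase and bicarbonate transport genes tested, 4 were upregulated and 1 was downregulated, beside 17.6% and 17.8% of all genes. CA12, a second membrane carbonic anhydrase, had 652, 525 and 531 CPM in normoxia and 1651, 1474 and 1319 CPM in hypoxia (log2 fold change, 1.38 ± 0.13 SE). The cytosolic enzyme CA2 decreased, with a log2 fold change of -1.24. The transporter SLC4A4 was called at 0.55 but lost its call in 5 of the 6 fits that left out a library, and 2 members were upregulated without hypoxia replicate 1, normoxia replicate 1 or normoxia replicate 2.

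Secreted factors that act on vessels and growth increased. Of 21 tested, 13 were upregulated and 1 was downregulated, with a median of 1.05. IGFBP1, a binding protein of insulin-like growth factors, had 2.86, 3.14 and 3.46 CPM in normoxia and 38.6, 27.0 and 33.7 CPM in hypoxia (log2 fold change, 3.39). PDGFB, a platelet-derived growth factor chain, had 5.53, 6.37 and 6.10 CPM against 29.7, 33.9 and 25.7 CPM (log2 fold change, 2.31). The hormones STC1 and ADM increased by 1.91 and 1.62. VEGFA, named after its value was seen, had 37.1, 41.0 and 39.7 CPM in normoxia and 97.3, 88.9 and 89.9 CPM in hypoxia (log2 fold change, 1.23 ± 0.10 SE).

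Of 19 enzymes that build and cross-link collagen, 12 were upregulated and 1 was downregulated (median, 0.53), beside 17.6% and 17.8% of all genes. LOXL2, a lysyl oxidase relative of LOX, had 289.7, 285 and 346 CPM in normoxia and 1247, 1235 and 1159 CPM in hypoxia (log2 fold change, 1.98). The collagen prolyl hydroxylase P4HA1 had 47.8, 47.4 and 42.0 CPM against 173, 141 and 168 CPM (log2 fold change, 1.81), and P4HA2 increased by 1.28. The lysyl hydroxylase PLOD2 had 339, 387 and 389 CPM against 1051, 1052 and 1244 CPM (log2 fold change, 1.58), and PLOD1 increased by 0.91. These enzymes need oxygen as a substrate.

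Genes of epithelial-mesenchymal transition and transforming growth factor signalling included markers of both cell states. Of 28 tested, 14 were upregulated and 2 downregulated, with 1 downregulated in each left-out fit other than that without normoxia replicate 3. The mesenchymal filament gene VIM had 1033, 1063 and 1444 CPM in normoxia and 2544, 2645 and 2920.5 CPM in hypoxia (log2 fold change, 1.196). TGFB1, its receptor TGFBR1 and the integrin ITGA5 increased by 1.05, 1.18 and 0.94. The epithelial genes ITGB4 and CDH1 increased too, CDH1 with 15.8, 8.12 and 11.1 CPM in normoxia and 35.0, 22.9 and 18.6 CPM in hypoxia (log2 fold change, 1.13). Of the epithelial keratins, KRT19 increased by 0.79 while KRT8, KRT18 and KRT7 had changes of 0.07, 0.11 and 0.01 and were not called.

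Of the markers of lung alveolar type 2 cells, ABCA3, a lipid transporter of lamellar bodies, had 26.7, 33.3 and 35.2 CPM in normoxia and 88.2, 91.9 and 76.5 CPM in hypoxia (log2 fold change, 1.43 ± 0.13 SE). The mucin MUC1 had 0.947, 0.949 and 1.12 CPM against 7.63, 5.60 and 4.15 CPM (log2 fold change, 2.52 ± 0.26 SE). FOXA1, FOXA2, LAMP3 and NAPSA were tested and not called. Among markers of other tissues, TFF1, TRPS1, CD68 and COL1A1 were upregulated at means of at most 36.1 CPM in hypoxia, and COL3A1, at a mean of 0.493 CPM in normoxia, was downregulated. COL1A1 lost its call with the GC and length correction, where 0 fibroblast markers were upregulated. The markers of those tissues that were named for the line's identity had 0 or few counts.

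Histone and nucleic acid demethylases, oxygen-using enzymes as well, gave 11 upregulated and 0 downregulated genes of 23. KDM3A, which removes methyl groups from histone H3 lysine 9, had 40.3, 44.5 and 39.8 CPM in normoxia and 146, 119 and 116 CPM in hypoxia (log2 fold change, 1.62). KDM4B had 13.5, 12.1 and 15.4 CPM against 53.4, 43.1 and 32.6 CPM (log2 fold change, 1.66). The RNA demethylase ALKBH5 increased by 0.97, and KDM5B and KDM2A by 0.80 and 0.79. With the GC and length correction 7 were upregulated, and 7 were without normoxia replicate 2.

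Of 27 fatty acid and lipid genes tested, 14 were upregulated and 3 downregulated (6 with the GC and length correction), and of 28 sterol genes 13 were upregulated and 0 downregulated. PLIN2, a coat protein of lipid droplets, had 31.3, 32.5 and 33.5 CPM in normoxia and 146, 107 and 140.2 CPM in hypoxia (log2 fold change, 2.01). HILPDA, an inhibitor of lipid breakdown, increased by 1.35, and the desaturases SCD and FADS2 by 1.31 and 1.09. INSIG1 and INSIG2, which hold back sterol synthesis, increased by 1.16 and 1.09, as did SREBF2, LSS and DHCR7 of its synthetic side by 0.83, 0.92 and 0.72. Without normoxia replicate 2, 9 of the lipid genes and 8 of the sterol genes were upregulated. ELOVL6, a fatty acid elongase, decreased, with a log2 fold change of -0.83.

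Most ribosome biogenesis genes decreased. Of 45 tested, 30 (66.7%) were downregulated and 0 upregulated, with a median of -0.46 that was -0.43 with the GC and length correction and 29 calls. NOP58 and NOP56, core proteins of box C/D ribonucleoproteins, decreased, with log2 fold changes of -0.995 and -1.004. NOP58 had 179, 183 and 156 CPM in normoxia and 84.9, 90.3 and 84.8 CPM in hypoxia. LTV1, GNL3, NOP16 and PNO1, which act in subunit assembly, decreased, with log2 fold changes between -1.10 and -0.91.

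Other growth-related lists pointed the same way. Of 19 cytosolic tRNA synthetase genes tested, 12 were downregulated and 2 upregulated. MARS had 368, 312 and 305 CPM in normoxia and 207, 178 and 189 CPM in hypoxia (log2 fold change, -0.78), while DARS and QARS increased by 0.66 and 0.59. The count of decreases was 7 without hypoxia replicate 1 and 5 without hypoxia replicate 2 or normoxia replicate 1. RARS lost its call with the GC and length correction (adjusted p = 0.184, edgeR).

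Chaperone genes also decreased, with 18 of 26 downregulated and 0 upregulated (median, -0.39). HSP90AA1, the inducible cytosolic HSP90, had 3362, 3756 and 3483 CPM in normoxia and 1940.5, 1901 and 1765 CPM in hypoxia (log2 fold change, -0.92 ± 0.11 SE). HSPA8, the constitutive HSC70, decreased, with a log2 fold change of -0.51, and HSPH1, HSPE1 and the chaperonin subunit CCT2 of -0.67, -0.68 and -0.67. With the GC and length correction 11 were downregulated, and the call of HSPE1 was lost (adjusted p = 0.477, edgeR). The count was 11 without hypoxia replicate 1 and 8 without hypoxia replicate 2.

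Most DNA repair genes decreased. Of 27 repair genes, 18 (66.7%) were downregulated and 1 was upregulated, with a median of -0.50, and the count with the GC and length correction was also 18. RAD51C had 50.8, 46.6 and 47.1 CPM in normoxia and 24.9, 27.8 and 28.3 CPM in hypoxia (log2 fold change, -0.84). XRCC2, FANCD2, PALB2 and NBN decreased, with log2 fold changes of -1.23, -0.62, -0.63 and -0.55. Of 37 replication genes, 17 were downregulated, 18 were not called and 2 were upregulated, and the 2 were lost without hypoxia replicate 2, normoxia replicate 1 or normoxia replicate 2. ORC6 of the origin recognition complex had 46.6, 48.3 and 38.4 CPM against 18.6, 21.9 and 23.0 CPM (log2 fold change, -1.07), and MCM10 decreased, with a log2 fold change of -0.94. Of 30 G2/M genes, 10 were downregulated and 0 upregulated, among them CCNB1 (-0.53), CDK1 (-0.54) and CENPE (-1.27). With the GC and length correction 2 were downregulated and CDK1 was at -0.08 (adjusted p = 0.542, edgeR). Without normoxia replicate 2, 6 were downregulated. Whether the lists differed from each other was not tested.

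In the MAX network, antagonists of MYC increased. MXI1, a repressor that competes with MYC for MAX, had 10.9, 10.1 and 8.88 CPM in normoxia and 40.6, 23.7 and 27.1 CPM in hypoxia (log2 fold change, 1.61), and its relatives MXD4 and MNT increased by 1.23 and 0.92. MYC itself, named after its value was seen, had a change of 0.20 (adjusted p = 0.25). Of 16 members tested, 7 were upregulated and 4 downregulated, and 2 were downregulated without hypoxia replicate 2.

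Stress pathways gave mixed counts near the background. Of 26 NRF2 targets, 3 were upregulated and 5 downregulated, which became 1 and 9 with scaling to library totals and 5 and 4 with the GC and length correction. The increases numbered 1 without hypoxia replicate 1 or normoxia replicate 2, and the decreases 3 without hypoxia replicate 2 and 2 without normoxia replicate 1. GCLC and HMOX1 increased by 0.57 each, but HMOX1 lost its call without hypoxia replicate 1 or normoxia replicate 2 (highest adjusted p = 0.0858, edgeR). AKR1C1, AKR1C3, TXN and SLC7A11 decreased, with log2 fold changes of -0.53, -0.50, -0.51 and -0.68, and with the GC and length correction TXN was at 0.07 and AKR1C3 lost its call (adjusted p = 0.0936, edgeR). AKR1C1 and AKR1C3 also lost theirs without normoxia replicate 1, and AKR1C3 without hypoxia replicate 2. Of 25 p53 targets, 4 were upregulated and 6 downregulated, with TP53INP1 at 1.02, FAS at -0.90 and PLK2 at -0.87. The p53 targets CDKN1A and MDM2, named after their values were seen, had changes of -0.11 and -0.01 and were not called.

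Endoplasmic reticulum and amino acid stress genes also went both ways, with 6 of 30 upregulated and 7 downregulated, beside 17.6% and 17.8% of all genes. TRIB3 had 117, 101 and 115 CPM in normoxia and 332, 240.1 and 279 CPM in hypoxia (log2 fold change, 1.35), while ATF4, the transcription factor at the centre of this response, had 308, 292 and 267 CPM against 229, 175 and 159 CPM (log2 fold change, -0.62 ± 0.14 SE). The serine synthesis enzyme PSAT1 decreased, with a log2 fold change of -0.71, and EDEM1 and HERPUD1 increased by 0.76 and 0.52. Of 23 apoptosis genes, 6 (26.1%) were upregulated and 4 (17.4%) downregulated, beside the same shares of all genes. The BH3-only genes PMAIP1 and BMF changed by -1.07 and 1.58. Without hypoxia replicate 2, normoxia replicate 1 or normoxia replicate 2, 2 apoptosis genes were downregulated.

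Inflammatory genes gave counts near those of all genes. Of 22 tested, 5 were upregulated (3 without normoxia replicate 2) and 4 were downregulated, beside 17.6% and 17.8% of all genes, and the 4 were CXCL1, CXCL2, CXCL3 and CXCL5, at -1.21, -3.51, -1.79 and -0.57. With the GC and length correction 6 members were downregulated, CXCL5 not among them (adjusted p = 0.302, edgeR), and CXCL1, CXCL2 and CXCL3 are similar in sequence. TNIP1, an inhibitor of NF-κB signalling, had 135, 164 and 172 CPM in normoxia and 378, 403 and 339 CPM in hypoxia (log2 fold change, 1.25), and ICAM1 increased by 1.49. Of 24 interferon response genes, 6 (25%) were upregulated and 3 (12.5%) downregulated, beside the same shares of all genes. The decreases numbered 1 without hypoxia replicate 1, hypoxia replicate 2 or normoxia replicate 2, and 5 without normoxia replicate 3. Class I antigen genes were among the increases, with HLA-B and HLA-C at 1.61 and 0.44. These genes are similar in sequence, and fragments without a unique position were excluded before counting, so their levels are uncertain.

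Signalling and regulatory lists held single genes with larger changes. DDIT4 (REDD1), which restrains mTORC1, had 244, 169 and 186 CPM in normoxia and 699, 601 and 646 CPM in hypoxia (log2 fold change, 1.70). Of 17 mTORC1 genes, 5 (29.4%) were upregulated, beside 17.6% of all genes. That count was 2 with library totals, 3 without hypoxia replicate 1, and 2 without hypoxia replicate 2, normoxia replicate 1 or normoxia replicate 2. With the GC and length correction 4 were upregulated and 1 was downregulated, and the list median went from 0.27 to -0.07. TSC2 had a change of 0.37 that was called in 2 of the 6 left-out fits and was at -0.15 with the GC and length correction. The clock repressor BHLHE40 had 145, 138 and 156 CPM against 429, 383 and 384 CPM (log2 fold change, 1.45), and 7 of 19 clock genes were upregulated. Of 24 Wnt genes 7 were upregulated and 1 was downregulated, with WNT11 at 1.92, FZD7 at 0.88 and the antagonist DKK1 at -0.66. Without normoxia replicate 3, 11 of these were upregulated, and with the GC and length correction 4 were upregulated and 2 downregulated, with a median of 0.01 in place of 0.11.

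Notch pathway genes gave 9 upregulated and 1 downregulated of 14, with NOTCH2 at 1.17, RBPJ at 0.66 and JAG1 at -0.48. Their transcripts were GC-rich and long (list medians, 57.4% and 5754 bases, against 48.3% and 3856 for all genes). With the GC and length correction 4 were upregulated, and 5, 4 and 3 were without hypoxia replicate 1, hypoxia replicate 2 and normoxia replicate 2. JAG2, at 0.62, was at 0.19 with the correction (adjusted p = 0.227, edgeR).

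Iron, metal and histone genes completed the lists. The iron reductase STEAP3 had 76.0, 75.8 and 83.6 CPM in normoxia and 234, 229 and 225 CPM in hypoxia (log2 fold change, 1.55), and the transferrin receptor TFRC and the ferroxidase CP increased by 0.43 and 2.39. They were among 5 upregulated of 18 iron genes (27.8%), beside 17.6% of all genes. Of 6 metallothionein-related genes tested, 3 were upregulated. MT1X, a zinc-binding metallothionein, had 12.3, 9.53 and 9.95 CPM against 92.3, 65.6 and 84.0 CPM (log2 fold change, 2.93 ± 0.15 SE), and MT2A increased by 1.61. Of 15 histone genes, 7 were upregulated, in every left-out fit too, and 1 was downregulated, which was lost without hypoxia replicate 1 or 2 or normoxia replicate 1 or 2. HIST1H4H had 1.19, 1.34 and 0.511 CPM against 8.26, 6.22 and 7.52 CPM (log2 fold change, 2.86). Histone and metallothionein genes have near-identical copies, and most histone mRNA lacks a poly(A) tail, so their values are uncertain.

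The 6 downregulated genes with the highest mean CPM were ALDH1A1, HSP90AA1, HSPA8, AKR1C3, LDHB and EIF4A1. ALDH1A1, an aldehyde dehydrogenase, had 7595, 6200.4 and 6425 CPM in normoxia and 5190.2, 4864 and 5212 CPM in hypoxia (log2 fold change, -0.41 ± 0.11 SE). Its call was lost without hypoxia replicate 2 (adjusted p = 0.0919) or normoxia replicate 1 (adjusted p = 0.0995) and with the GC and length correction (adjusted p = 0.314, edgeR). The translation initiation helicase EIF4A1 had a log2 fold change of -0.46 and lost its call without hypoxia replicate 2 (adjusted p = 0.061, edgeR).

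To ask which responses differed in A549 cells, the change in A549 was tested against the mean change in HCT116, PC3 and T47D cells in a fit of all 24 libraries. Of 16089 genes tested, the response was larger in A549 for 87 (0.541%) and smaller for 145 (0.901%). The counts depended on the fit. They were 335 and 257 with DESeq2, and between 44 and 57 and between 42 and 77 when any 1 A549 library was left out. Without T47D cells they were 191 and 284, and without HCT116 cells 143 and 78.

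Among the 6 largest differences in favour of A549 cells, MT1X had the smallest adjusted p. Metallothionein genes have near-identical copies, so its values are uncertain. In A549 cells MT1X had between 10.1 and 13.0 CPM in normoxia and between 69.6 and 97.5 CPM in hypoxia in this fit, whereas HCT116 cells had 22.9 to 27.8 CPM against 31.9 to 38.3 CPM. In PC3 cells MT1X had 8.12 to 10.0 CPM against 4.93 to 6.82 CPM, and in T47D cells 2.83 to 6.02 CPM against 1.67 to 3.73 CPM. The difference was 3.20 ± 0.29 (log2, SE; adjusted p = 5.6e-07, edgeR). LOX differed by 3.34 ± 0.41 (log2, SE; adjusted p = 3.6e-05), with increases of 4.60 in A549, 4.26 in T47D and 0.93 in PC3 cells and a change of -1.64 in HCT116 cells. In T47D cells LOX went from at most 0.637 to at least 6.62 CPM.

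KLB, a co-receptor of endocrine fibroblast growth factors, had log2 fold changes of 1.71 in A549 and -2.73 in HCT116 cells, both called, and a difference of 3.29 ± 0.66 (log2, SE; adjusted p = 0.0096, edgeR). Without HCT116 cells the KLB difference was 2.82 (adjusted p = 0.0533). KLB was at most 0.508 CPM in PC3 and 0.186 CPM in T47D cells. HIST1H4H and FAM115C differed by 2.77 and 3.65, and FAM115C, at 5, 0 and 1 counts in normoxic and 108, 138 and 108 counts in hypoxic A549 cells, increased in all 4 lines. C4orf19 differed by 4.19 but had at most 0.155 CPM in A549 cells, so its difference rested on a few counts.

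Smaller responses in A549 cells included PGF, placental growth factor, which increased by 1.26 in PC3 cells and by 6.89 in T47D cells, from at most 0.0637 CPM, and had a change of -0.37 in A549 cells (adjusted p = 0.37). PGF had 1.74, 1.83 and 1.72 CPM in normoxic and 1.85, 1.32 and 0.921 CPM in hypoxic A549 cells, and the difference was -3.13 ± 0.41 (log2, SE; adjusted p = 8.7e-05, edgeR). Without T47D cells the PGF difference was -1.03 (adjusted p = 0.0724). BDKRB2, the bradykinin B2 receptor, had log2 fold changes of -1.11 in A549 and 1.65 in T47D cells, both called (difference, -3.79 ± 0.72 SE). It had 0 counts in the normoxic PC3 libraries, at most 0.122 CPM in the hypoxic ones and at most 0.364 CPM in HCT116 cells, where it was not called (adjusted p = 0.124), so the fitted difference depends on the prior count and is not a size. NTSR1 and MAPK13 differed by -2.79 and -2.73 at levels under 1 CPM in A549 cells, with MAPK13 between 40.5 and 146 CPM in the other lines. Both calls were lost without hypoxia replicate 1 or normoxia replicate 2, and that of NTSR1 also without normoxia replicate 3 (highest adjusted p, 0.105 for MAPK13 and 0.0712 for NTSR1). FUT3 and CNKSR1 had 0 counts in the 3 hypoxic A549 libraries and at most 0.108 and 0.501 CPM in the normoxic ones, so their fitted differences of -6.54 and -6.52 depend on the prior count and are not sizes. Without normoxia replicate 3 the call of FUT3 was lost (adjusted p = 0.327), as was that of CNKSR1 without normoxia replicate 2 (adjusted p = 0.126), and both were lost without hypoxia replicate 1 or 3 and that of FUT3 without hypoxia replicate 2.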

How the data were processed

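RNA-seq was compared between 3 hypoxic and 3 normoxic A549 libraries. Per the labels and the study's methods, the authors trimmed reads with Trim Galore 0.3.3, aligned them to GRCh37 (hg19) with HISAT2 2.05, removed fragments without a unique position with Picard 2.0.1, and counted on UCSC genes with HTSeq 0.5.4p3 in intersection-strict mode. The deposited values are raw counts per gene. Genes with near-identical copies therefore lose counts. The strand setting of the counting is not given in the sources used here, so genes that overlap on opposite strands are uncertain.

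Counts of the 6 libraries were fitted alone in R 4.3.3 with edgeR 4.0.16 (filterByExpr, TMM scaling, quasi-likelihood test, Benjamini-Hochberg adjustment over 13897 genes). A call needed an adjusted p under 0.05 and a fold over 1.2. CPM are TMM-normalized. The comparison between lines used a fit of all 24 libraries with line, oxygen and their interaction. DESeq2 1.42.0, other scalings and filters, a spline of GC content and transcript length, each library left out in turn and the replicate number as a block were the alternatives. The edgeR fit was also run on simulated data, and the results of that run are not reported here.

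Named genes were the 12 largest increases and 12 largest decreases among called genes with a mean log2 CPM over 1 and no overlap of the states, the 6 called members with the smallest p in each list, all tested oxygen-sensing and marker genes, the 6 largest differences between lines each way, and the 6 called genes with the highest mean CPM each way. Some genes that these rules name are not reported here. The comparison, the gene lists and these rules were chosen with earlier results of these data known. Gene names and GRCh37 coordinates came from GENCODE, which matched 21584 of 23106 symbols (93.4%). Promoters and miRNAs came from RefSeq tables of GRCh38.p14. Totals of 51650509 to 62850747 counts per library put 3 counts at 0.0488 to 0.0565 CPM, and this floor covers counting error only.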

Additional observations from a re-analysis of the deposited data

Results flagged for a closer look

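The response to hypoxia was tested for a difference between A549 cells and the mean of HCT116, PC3 and T47D cells, and it was larger in A549 cells for 87 genes and smaller for 145 (edgeR's quasi-likelihood test). The 6 largest differences in favour of A549 cells were those of C4orf19 (4.19, log2), FAM115C (3.65), LOX (3.34), KLB (3.29), MT1X (3.20) and HIST1H4H (2.77). The 6 largest in the other direction were those of FUT3 (-6.54), CNKSR1 (-6.52), BDKRB2 (-3.79), PGF (-3.13), NTSR1 (-2.79) and MAPK13 (-2.73). C4orf19, FUT3, CNKSR1 and NTSR1 had at most 0.501 CPM in any A549 library. BDKRB2 had at most 0.364 CPM in any PC3 or HCT116 library, and KLB at most 0.508 CPM in any PC3, T47D or hypoxic HCT116 library. The differences of these genes therefore rest on few counts. MT1X and HIST1H4H belong to families with near-identical copies, so their values are uncertain.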

How the results depend on the processing

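Other scalings, filters, DESeq2 (2675 upregulated and 2548 downregulated genes), the GC and length correction and the block left the counts of upregulated and downregulated genes within 1.5 times of 2452 and 2476. Stricter or wider fits did not: the counts were 1427 and 1182 in one fit of all 24 libraries, 1440 and 1247 in a test against a fold of 1.2, 1398 and 1144 at a fold over 1.5, and 1438 and 1296 at an adjusted p under 0.01. Similar counts did not mean the same genes. With the GC and length correction, only 1686 of the 2452 upregulated and 1635 of the 2476 downregulated genes were called again. Leaving out 1 library gave 1642 to 2702 upregulated and 1467 to 2629 downregulated genes. The median of the 48-gene list was 1.43 with library totals and 1.503 to 1.635 with a library left out. The share of promoter windows of genes called over 4-fold higher with a motif went from 54.5% to 23.6% with ACGTG alone, beside 54.6% and 22.1% of all windows, and classes are not compared.

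Same-numbered hypoxic and normoxic libraries deviated together with r of 0.207, 0.088 and 0.083. Pairs with different numbers had r between -0.183 and 0.091, the highest being hypoxia replicate 2 with normoxia replicate 3. Each of these pairs but the last-named had a negative r. Whether same-numbered libraries were prepared together was not tested. With the replicate block 2507 genes were upregulated and 2495 downregulated. VHL was then called (-0.78, adjusted p = 0.0033, edgeR; -0.80 and 0.0011 with the GC and length correction added), as were EGLN2 (-0.27, 0.0272) and SIAH1 (0.37, 0.0262) with both.

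Genes with a larger response in A549 cells numbered 135 with RLE size factors, 144 at a mean count of at least 50, 157 with the replicate block, 335 with DESeq2, 143 without HCT116 cells, 191 without T47D cells and 31 at an adjusted p under 0.01. They numbered 44 to 57 with a library left out. Genes with a smaller response numbered 244 with the block, 257 with DESeq2, 78 without HCT116 cells, 284 without T47D cells, 34 at an adjusted p under 0.01 and 42 to 77 with a library left out.

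Values that turned sign were those of CITED4 (-0.067 with library totals, -0.14 with the GC and length correction, -0.13 when the block was added, and -0.14 to 0.31 with a library left out), SIAH1 (-0.068 with library totals and -0.018 to 0.098 with a library left out), TSC2 (-0.15 with the correction, with or without the block) and TXN (0.069 with the correction and 0.068 with the block added). Of the other values of named genes, 253 lost and 9 gained a call and 3983 did neither. The causes were not tested beyond the correction. Depth limits genes under about 1 CPM the most.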
